A study of Mus musculus with 20 samples.

Results

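The transcription factors through which the circadian clock reaches its output genes were followed in the mouse ileum under dietary tryptophan deficiency and antibiotics. The set was taken by name, with earlier results of these data known. It held the activators Dbp, Tef and Hlf, their competitor Nfil3, and the repressors Ciart, Bhlhe40 and Bhlhe41. All 7 were among the 35204 genes of the count table and among the 16306 genes tested, which needed a level of 0.5 CPM (counts scaled to the size of each library) in at least 1 mouse. Dbp, Tef, Hlf, Nfil3 and Bhlhe40 reached that level in all 20 mice. Ciart reached it in 1 of 5 mice on control diet (CD), in 5 of 5 on the tryptophan-deficient diet (TDD), and in 4 and 5 of 5 on these diets with antibiotics (ABX). Bhlhe41 reached it in 4, 5, 4 and 5 of 5 mice in the same order.

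RNA was sequenced from a 0.5 cm piece of whole ileum from female C57Bl6 mice that were 7 weeks old when the diets began and ate CD or TDD for 3 weeks. Mice of the CD and TDD groups stayed specific pathogen-free (SPF), and those of the CD+ABX and TDD+ABX groups also received ampicillin, vancomycin, gentamycin, metronidazole and neomycin. Each of the 4 groups held 5 mice, all of the same strain. Light schedule and the hour of tissue collection are not given in the sources used here. In such bulk RNA, fewer cells of a type and less RNA per cell cannot be told apart.

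The clock is a feedback loop in which CLOCK and BMAL1 (the product of Arntl) switch on genes that carry E-boxes, among them their own inhibitors of the PER and CRY families. The loop acts on tissue genes partly through second-tier factors. DBP, TEF and HLF are proline- and acid-rich (PAR) basic leucine zipper proteins that activate genes through D-boxes, and NFIL3 (also called E4BP4) represses from the same sites, so that D-box genes read the balance of both kinds. CIART (also called CHRONO) inhibits CLOCK-BMAL1 directly, and BHLHE40 and BHLHE41 (also called DEC1 and DEC2) repress from E-boxes. In the gut, clock factors are known for timing digestion, transport and defence, and NFIL3 also has roles in lipid uptake by enterocytes and in the development of innate lymphoid cells.

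The members lie on 6 chromosomes (GENCODE M21 on GRCm38): Ciart on chromosome 3 (95878503 to 95882251), Bhlhe40 and Bhlhe41 on chromosome 6 (108660629 to 108666925 and 145858243 to 145865558), Dbp on chromosome 7 (45705088 to 45710203), Hlf on chromosome 11 (90336536 to 90390895), Nfil3 on chromosome 13 (52967209 to 52981073) and Tef on chromosome 15 (81802421 to 81826863). Bhlhe40 and Bhlhe41 are paralogs. Promoter windows of 300 bases, 250 before and 50 after the start of a RefSeq transcript, were found for 6 of the 7. The E-box CACGTG, which reads the same on both strands, was in 7.15% of all 32851 windows. The E'-box (CACGTT or AACGTG) was in 4.68%, the D-box (TTATGTAA or TTACGTAA, both strands) in 1.06% and the core of the ROR element (TAGGTCA or TGGGTCA, both strands) in 6.45%. The stretches of member promoters that held one of them follow, with that of Per3, the gene outside the set whose levels were most like those of Ciart and among the 3 most like those of Dbp, Tef and Hlf. Capitals mark the motif and all other bases are lower case (5′ to 3′ on the strand of the gene, RefSeq, GRCm38.p6).
Ciart, chr3:95882249-95882362, minus strand: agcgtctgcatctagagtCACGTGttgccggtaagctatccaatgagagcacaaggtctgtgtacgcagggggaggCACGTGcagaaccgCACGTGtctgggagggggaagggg
Tef, upstream start, chr15:81802534-81802563, plus strand: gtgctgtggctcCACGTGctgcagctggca
Tef, downstream start, chr15:81811258-81811299, plus strand: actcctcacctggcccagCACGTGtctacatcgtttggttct
Bhlhe41, chr6:145865550-145865591, minus strand: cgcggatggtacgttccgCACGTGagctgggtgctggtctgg
Nfil3, chr13:52981040-52981069, minus strand: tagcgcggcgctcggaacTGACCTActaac
Per3, chr4:151044798-151044888, minus strand: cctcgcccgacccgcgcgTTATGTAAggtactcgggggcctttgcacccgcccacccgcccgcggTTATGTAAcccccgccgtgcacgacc

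Ciart thus had 3 E-boxes, beginning 116, 58 and 44 bases before its start, Tef had 1 before each of its 2 starts, and Bhlhe41 had 1. The ROR core of Nfil3 was on the opposite strand, in an annotated exon of GENCODE, as was the E-box before the upstream Tef start. Per3 had 2 D-boxes. These are matches of letters only, and no binding was measured.

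Total counts ranged from 36676963 to 58662617 per mouse. The tissue label was set against its markers: Vil1, Epcam and Alpi, which mark enterocytes at large, had mean levels of 3618 to 3884, 1699 to 1923 and 663 to 864 CPM over the 4 groups. The markers of the distal ileum were near absent in SPF mice, with mean Fabp6 levels of 1.17 (CD) and 1.4 CPM (TDD) and mean Slc10a2 levels of 2.35 and 5.89 CPM, whereas with ABX Fabp6 had means of 41.5 and 20.1 CPM and Slc10a2 of 39.5 and 37 CPM. Of 4 skeletal muscle markers, Myh4 had no count in any group, while Acta1 had means of 16 CPM on CD and 22.2 CPM on TDD and of 1.5 and 2.66 CPM on these diets with ABX.

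CD+ABX mouse 4 stood apart from its group in the clock genes and is named beside each result that it touches. Its Dbp, Tef and Hlf levels lay under the lowest CD mouse and its Nfil3 and Ciart levels inside the CD range. Its antibiotic label was set against the 265 genes called between TDD and TDD+ABX mice, whose groups did not include it and whose calls include no clock gene. With each gene signed by its direction there, the mean log2 level of this mouse lay 0.85 above the CD mean. The other CD+ABX mice lay 0.62 to 0.78 above it and CD mice between -0.27 and 0.09.

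The PAR activators were far higher on TDD in SPF mice. Dbp, known for a strong daily swing in many tissues, was at 11.6, 18.5, 11.2, 21.8 and 5.07 CPM in CD mice 1 to 5 and at 176, 81.2, 89.3, 104 and 147 CPM in TDD mice. The lowest TDD mouse was thus well above the highest CD mouse. Tef, a widely expressed PAR factor, was at 27.8, 33.3, 26.3, 44.9 and 20.8 CPM on CD and at 155, 92.0, 120, 117 and 130 CPM on TDD. Hlf, the third PAR factor and the least abundant here, was at 4.30, 5.33, 3.91, 6.51 and 2.15 CPM on CD and at 41.8, 25.8, 27.3, 23.6 and 36.6 CPM on TDD. For each of these genes the diets did not overlap, and CD mouse 5 was the lowest and CD mouse 4 the highest of the CD group.

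Fitted with edgeR's quasi-likelihood test, Hlf rose 7.0-fold on TDD in SPF mice (95% interval 3.96 to 12.4, q = 0.000173, where q is the Benjamini-Hochberg adjusted p over all genes tested). Dbp rose 8.77-fold (4.2 to 18.3) and Tef 4.02-fold (2.60 to 6.2), so that the interval of Tef overlapped those of both others. These calls held in all 20 fits with 1 mouse left out, with log2 fold changes of 2.91 to 3.37 for Dbp, 1.88 to 2.19 for Tef and 2.62 to 2.99 for Hlf.

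Nfil3, the repressor of the same sites, moved the other way. It was at 15.3, 12.1, 13.6, 10.6 and 19.9 CPM in CD mice and at 2.73, 3.46, 3.27, 2.70 and 2.48 CPM in TDD mice. No TDD mouse reached the level of any CD mouse, and the TDD mice lay within 1.39-fold of each other. The fitted fall was 4.88-fold, and its log2 fold change stayed between -2.38 and -2.15 when single mice were left out (edgeR, q at most 0.00303).

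Ciart, the inhibitor of CLOCK-BMAL1, had the largest fold change of the 7. In CD mice it was at 0.275, 0.395, 0.299, 0.734 and 0.253 CPM, from 10 to 32 counts each. In TDD mice it was at 10.8, 3.07, 2.96, 5.67 and 8.89 CPM, from 134 to 523 counts. The groups did not overlap, while TDD mice differed among themselves by up to 3.66-fold. The fitted rise was 16.0-fold with an interval of 7.10 to 35.9 (edgeR, q = 0.000162), and the small counts on CD leave its size less certain than its direction.

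The DEC genes changed less than the other members. Bhlhe41 was at 0.936, 1.44, 1.14, 0.436 and 0.821 CPM on CD and at 1.63, 1.42, 1.55, 2.53 and 2.84 CPM on TDD. TDD mouse 2 lay just under CD mouse 2, so that the diets overlapped by these mice alone. The fitted rise was 2.09-fold (1.33 to 3.29, q = 0.0286, edgeR), and the call was lost in 5 of the 20 fits with 1 mouse left out (those lacking mouse 1, 4 or 5 of CD, or mouse 4 or 5 of TDD, with q up to 0.0855, edgeR). Bhlhe40, its abundant paralog, was at 79.0, 57.7, 95.6, 88.8 and 88.6 CPM on CD and at 115, 89.3, 77.7, 88.3 and 84.2 CPM on TDD. These ranges overlapped broadly, and the log2 fold change of 0.15 had an interval from -0.22 to 0.52 (edgeR, q = 0.632).

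**Figure D1:**
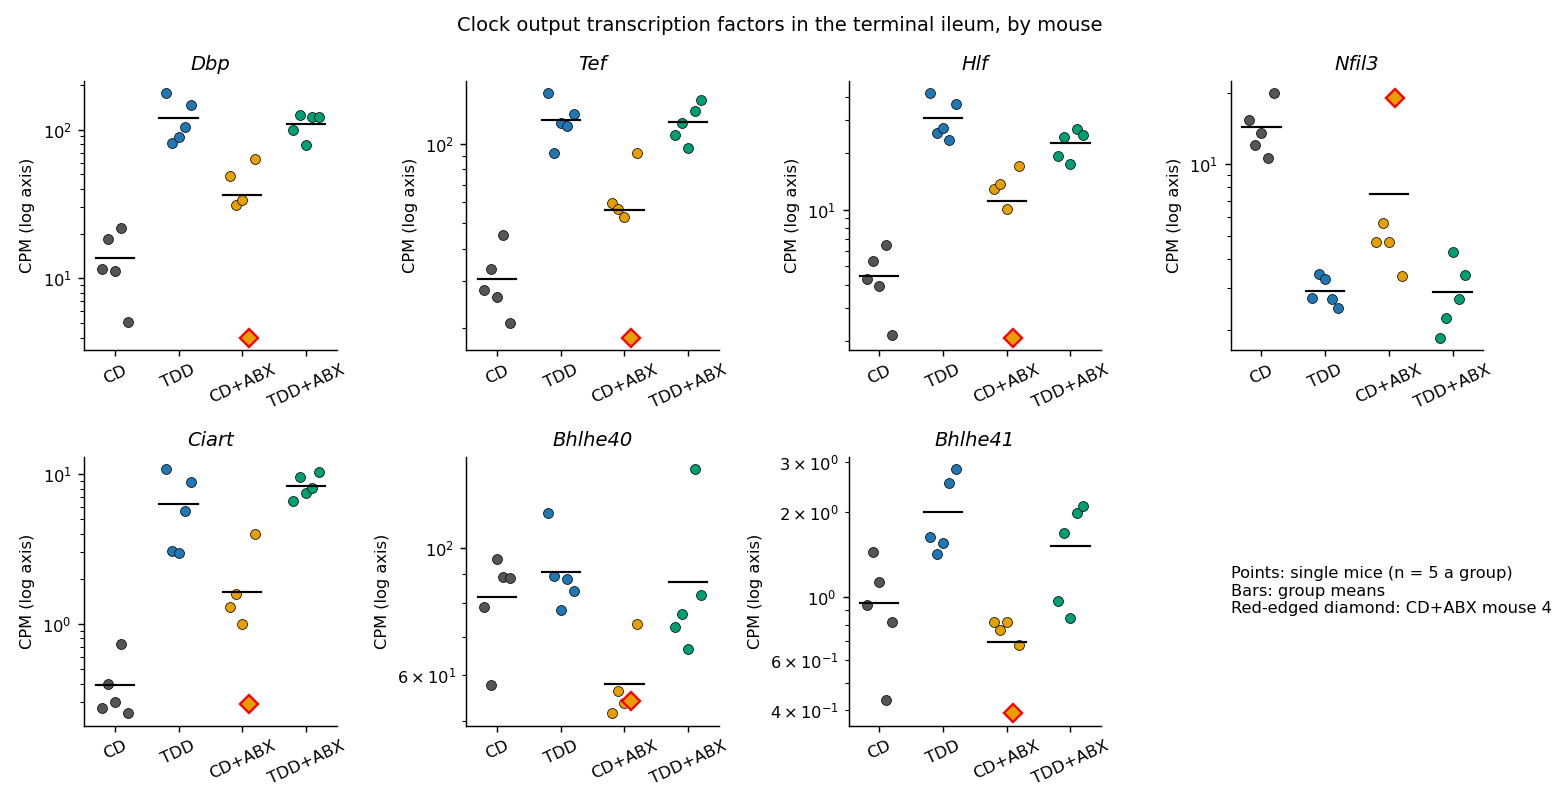
Level of each clock output factor in single mice (CPM, log axis) in the 4 groups. Points are mice, horizontal bars are means of 5 mice, and the red-edged diamond is CD+ABX mouse 4. Dbp, Tef, Hlf and Ciart sit higher and Nfil3 lower in the TDD than in the CD mice without overlap, while Bhlhe40 overlaps between the diets in SPF mice.

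In all, 6 of the 7 members were called in SPF mice on TDD (q under 0.05 and at least 2-fold), 5 higher and 1 lower. Over all genes tested 1.83% were called, 0.834% higher and 0.993% lower. The diets did not overlap for 5 of the 7, against 9.58% of all genes. The median size of the log2 fold change was 2.29 over the members and 0.16 over all genes. The 7 genes were chosen with earlier results of these data known. They are known parts of a linked network and do not count as independent cases.

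Under ABX the same members were measured on the same diets. Dbp was at 48.6, 31.3, 33.8, 3.99 and 63.9 CPM in CD+ABX mice 1 to 5 and at 99.6, 126, 78.7, 122 and 121 CPM in TDD+ABX mice. The diets still did not overlap, but all CD+ABX mice other than mouse 4 lay above every CD mouse of the SPF groups. The fold change of 3.02 (1.52 to 6.01) missed the threshold (edgeR, q = 0.099). Tef was at 59.5, 56.6, 52.9, 18.3 and 92.4 CPM without and at 108, 120, 96.4, 133 and 146 CPM with TDD. CD+ABX mouse 5 came close to TDD+ABX mouse 3, the lowest of its group. The fold change was 2.16 (1.42 to 3.29, q = 0.0585, edgeR), and without CD+ABX mouse 5 Tef was called (log2 fold change 1.37, q = 0.02, edgeR). Hlf was at 12.9, 13.8, 10.1, 2.08 and 17 CPM in CD+ABX mice and at 19.3, 24.5, 17.6, 27.0 and 25.1 CPM in TDD+ABX mice. Mouse 5 of CD+ABX and mouse 3 of TDD+ABX nearly met, and the fold change of 2.03 (1.2 to 3.46) was not called (edgeR, q = 0.18).

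Nfil3 was at 4.72, 5.68, 4.73, 19.1 and 3.39 CPM in CD+ABX mice and at 1.86, 2.26, 4.28, 2.71 and 3.42 CPM in TDD+ABX mice. Here the diets overlapped, and mouse 4 alone set the mean of its group. The log2 fold change was -1.37 (q = 0.0699, edgeR) with that mouse and -0.67 (q = 0.186, edgeR) without it. Without CD+ABX mouse 5 it was -1.56 and was called (q = 0.0349, edgeR). Ciart was at 1.3, 1.58, 1.0, 0.292 and 4.0 CPM in CD+ABX mice and at 6.61, 9.5, 7.5, 8.04 and 10.3 CPM in TDD+ABX mice. It was the member called here, with a 5.12-fold rise (2.50 to 10.5, q = 0.0212, edgeR). It stayed called without mouse 4 (log2 fold change 2.07, q = 0.0395, edgeR), where 0.153% of all genes were called, and was not called without CD+ABX mouse 1 or 3 (q = 0.057 and 0.064, edgeR).

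Bhlhe41 was at 0.816, 0.767, 0.819, 0.389 and 0.679 CPM in CD+ABX mice and at 0.971, 1.68, 0.847, 1.99 and 2.11 CPM in TDD+ABX mice. The diets did not overlap, although the nearest mice differed by little, and the fold change of 2.19 (1.38 to 3.47) was close to that in SPF mice but not called (edgeR, q = 0.0803). It was called without CD mouse 2 (log2 fold change 1.14, q = 0.0487, edgeR). Bhlhe40 was at 51.5, 56.2, 53.7, 54.2 and 73.7 CPM in CD+ABX mice and at 72.8, 76.7, 66.6, 137 and 82.8 CPM in TDD+ABX mice. These ranges overlapped through CD+ABX mouse 5, with a log2 fold change of 0.59 (0.22 to 0.96, q = 0.0993, edgeR).

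Thus 1 of the 7 members was called in ABX-treated mice, where 0.307% of all genes were called. All 7 had an unadjusted p under 0.05, against 14.7% of all genes, and 5 did not overlap between the diets, against 4.78%. The median size of the log2 fold change was 1.13, against 0.11 over all genes. Every member had the sign that it had in SPF mice, in groups that share no mouse. For Bhlhe40 the sign in SPF mice was itself unsettled, with an interval of -0.22 to 0.52. DESeq2 called 5 of the 7 here, namely Ciart, Dbp, Tef, Nfil3 and Bhlhe41, against 0.601% of all genes.

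**Figure D2:**
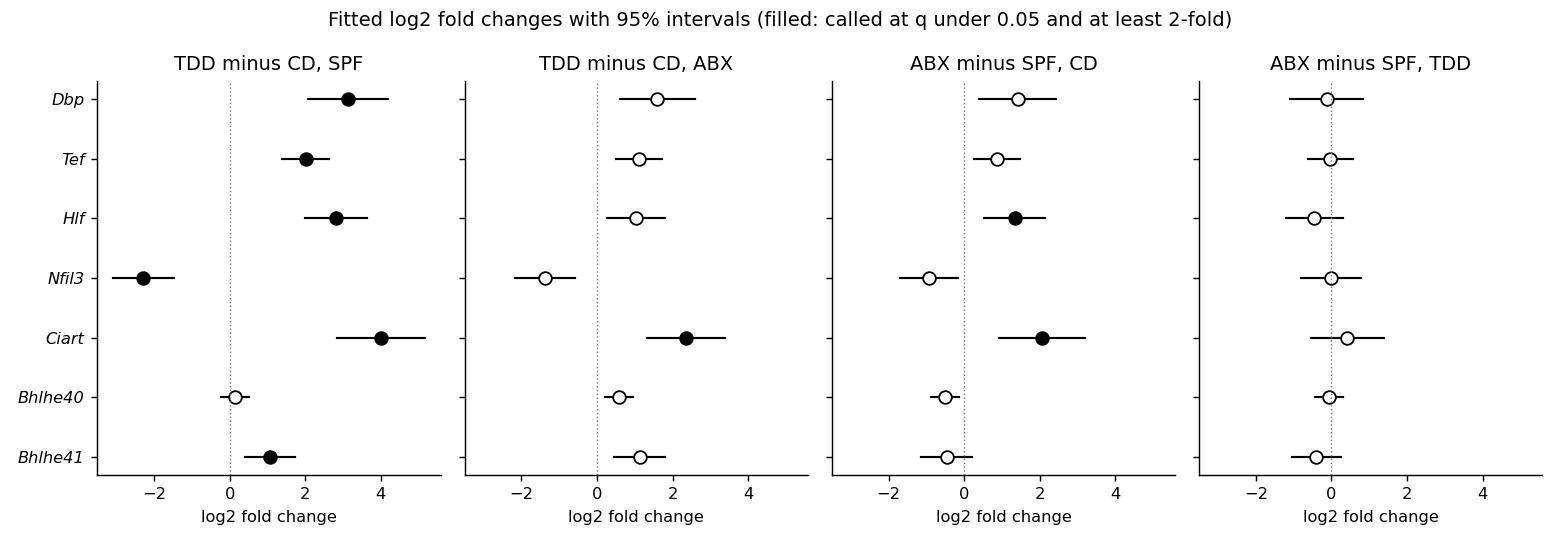
Fitted log2 fold changes (x axis) of the 7 members in the 4 comparisons between groups, with 95% intervals as lines. Filled points were called (6 for diet in SPF mice, 1 for diet in ABX-treated mice, 2 for ABX on CD and 0 for ABX on TDD), and in the last panel every interval crosses 0.

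The effect of ABX itself was then read on each diet. On CD, Ciart rose 4.17-fold with ABX (1.88 to 9.23, q = 0.0188) and Hlf 2.52-fold (1.45 to 4.39, q = 0.0282, both edgeR). Dbp (log2 fold change 1.42, q = 0.0617), Tef (0.87, q = 0.057) and Nfil3 (-0.92, q = 0.104) were not called, nor were Bhlhe40 (-0.50, q = 0.0698) and Bhlhe41 (-0.46, q = 0.401, all edgeR). So 2 of 7 were called, against 2.25% of all genes (0.576% higher), and for none of the 7 did the groups keep apart, against 9.74%. An unadjusted p under 0.05 was found for 6 of the 7, and for 26.5% of all genes.

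These values rested on single mice. Without CD+ABX mouse 4, 5 of the 7 were called on CD, where 1.9% of all genes were: Nfil3 (log2 fold change -1.62, q = 0.00041), Hlf (1.61, q = 0.00109), Tef (1.10, q = 0.00358), Dbp (1.72, q = 0.00506) and Ciart (2.34, q = 0.00526, all edgeR). Without CD+ABX mouse 5, which had the highest Dbp, Tef, Hlf and Ciart of its group, none was called (edgeR). There Ciart was at 1.4 with q = 0.0746 and Hlf at 1.13 with q = 0.0804 (edgeR). None was called without CD mouse 3 or CD mouse 5 either, with q for Ciart of 0.0506 and 0.0509 and for Hlf of 0.0655 and 0.0691 (edgeR). Without CD mouse 1, or CD+ABX mouse 1 or 2, Hlf was not called (q = 0.0551, 0.0527 and 0.0579, edgeR), and without CD mouse 4 Tef was called (1.05, q = 0.0342, edgeR).

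**Figure D3:**
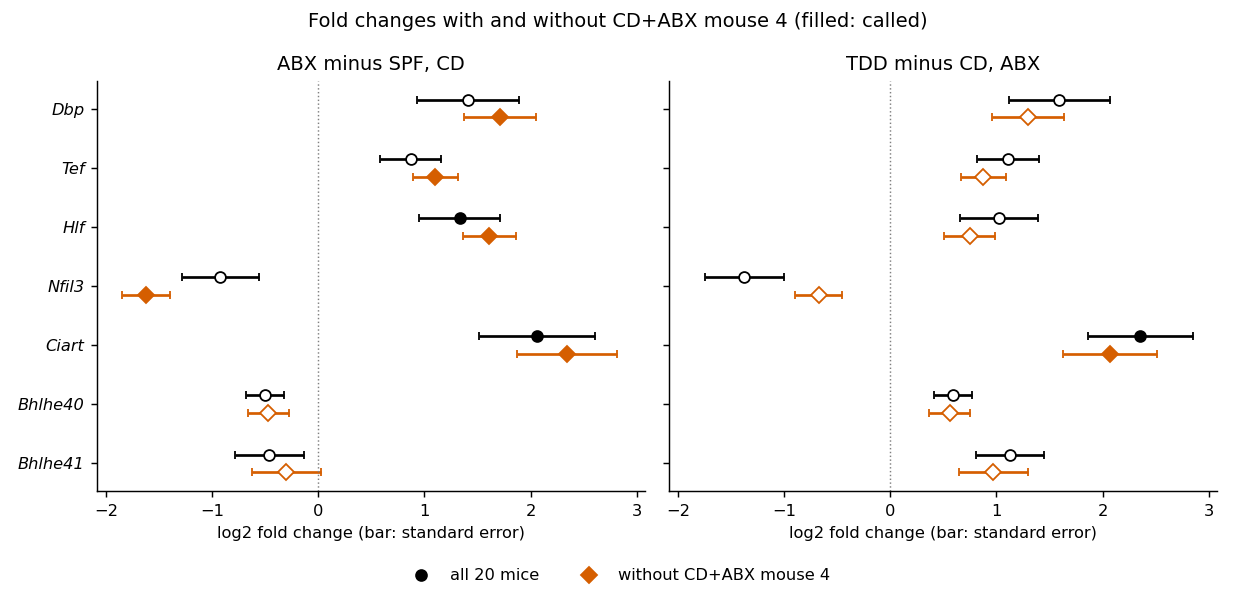
Log2 fold changes (x axis, bars are standard errors) of the 7 members for ABX on CD and for diet in ABX-treated mice, with all 20 mice (circles) and without CD+ABX mouse 4 (diamonds). Filled symbols were called. On CD, 2 are filled with all mice and 5 without that mouse, and for diet in ABX-treated mice Ciart alone is filled in both fits.

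On TDD, ABX left all 7 members without a detectable difference. The groups overlapped for each of them, and the counts called were 0 of 7 by edgeR, DESeq2 and limma-voom, with 0 at an unadjusted p under 0.05 by edgeR. Over all genes 1.63% were called, 30.5% had such a p and 11% did not overlap between the groups. For a set of 7 genes, 0 called and 0 without overlap are near these shares. The 95% intervals of the log2 fold change were -1.09 to 0.84 for Dbp, -0.63 to 0.57 for Tef, -1.20 to 0.30 for Hlf and -0.80 to 0.78 for Nfil3. For Ciart the interval was -0.55 to 1.39, for Bhlhe40 -0.43 to 0.31 and for Bhlhe41 -1.04 to 0.24. A 2-fold fall thus lay inside the intervals of Dbp, Hlf and Bhlhe41, and a 2-fold rise inside that of Ciart.

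Whether the diet effect differed with ABX was tested as the interaction of both factors. For Hlf, the log2 diet effect with ABX minus that in SPF mice was -1.78 (95% interval -2.88 to -0.69, q = 0.252, edgeR). It was -1.54 for Dbp (-2.93 to -0.15, q = 0.496), -1.64 for Ciart (-3.14 to -0.15, q = 0.497) and -0.90 for Tef (-1.75 to -0.04, q = 0.53, all edgeR). For Nfil3 it was 0.91, for Bhlhe40 0.44 and for Bhlhe41 0.07, each with an interval across 0. None of the 7 was called with edgeR, where 0.0245% of all genes were, and an unadjusted p under 0.05 was found for 4 of the 7 and 8.87% of all genes. DESeq2 and limma-voom also called none. Without CD+ABX mouse 4, Hlf (-2.05) and Nfil3 (1.62) were called, both at q = 0.0487 (edgeR), so 2 of 7 against 0.0736% of all genes.

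The ratio of Dbp to Nfil3 RNA was taken within each mouse in TPM, the unit of the deposited transcript tables, which corrects for transcript length. It leaves out Tef and Hlf, and neither protein nor binding at D-box genes was measured. In CD mice 1 to 5 the ratio was 0.994, 2.16, 1.19, 2.64 and 0.361, and in TDD mice it was 89.1, 33.3, 37.5, 50.2 and 80.2. The lowest TDD mouse, at 33.3, thus lay far above the highest CD mouse, at 2.64. In CD+ABX mice it was 13.6, 7.83, 9.90, 0.312 and 24.6, and in TDD+ABX mice 71.5, 73.1, 24.6, 62.1 and 47.6. Apart from mouse 4, which was lower than every CD mouse, the CD+ABX mice lay between the CD and the TDD mice, and CD+ABX mouse 5 touched the lowest TDD+ABX mouse.

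**Figure D4:**
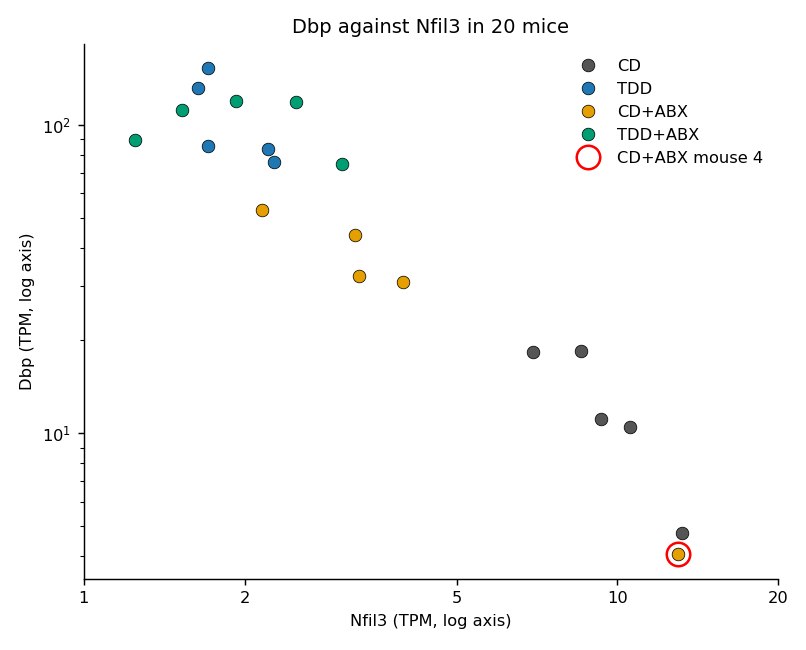
Dbp against Nfil3 in each of the 20 mice (TPM, both axes log). Colours are groups and the red ring marks CD+ABX mouse 4, which lies beside CD mouse 5 at high Nfil3 and low Dbp, while the TDD and TDD+ABX mice lie at low Nfil3 and high Dbp.

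Mice of the same group also differed from each other in an ordered way. In all 4 groups the mouse with the lowest Dbp was the one with the highest Nfil3 and the lowest Tef: CD mouse 5, TDD mouse 2, CD+ABX mouse 4 and TDD+ABX mouse 3. Hlf was lowest in that mouse in 3 of 4 groups, Bhlhe41 in 3, Ciart in 2 and Bhlhe40 in 1. The order was noticed in these data and was not tested. In CD+ABX the highest mouse exceeded the lowest 16.0-fold for Dbp and 5.04-fold for Tef. Without mouse 4 these spans were 2.04-fold and 1.75-fold, less than the 4.29-fold and 2.16-fold on CD. Those of Hlf, Nfil3, Bhlhe40 and Bhlhe41 were also less than on CD. Ciart went the other way, with 3.98-fold against 2.91-fold on CD. The spans without mouse 4 are over fewer mice than those on CD, and that mouse was picked after its values were seen.

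Between genes, levels can be compared only per length. In CD mice, Bhlhe40 was the most abundant member at 40.2 ± 7.12 TPM (SD, n = 5), followed by Tef at 20.8 ± 6.07, Dbp at 12.6 ± 5.82, Nfil3 at 9.72 ± 2.34, Hlf at 1.29 ± 0.54, Ciart at 0.637 ± 0.284 and Bhlhe41 at 0.384 ± 0.240 TPM. In this order Tef, Dbp and Nfil3 overlapped with their neighbours over single mice, as did Hlf, Ciart and Bhlhe41, while Bhlhe40 stood above Tef and Nfil3 above Hlf in every mouse. In TDD mice Dbp came first at 106 ± 34.1 TPM and overlapped with Tef at 73.8 ± 12 TPM. Bhlhe40 followed at 44.8 ± 3.80, then Hlf at 9.28 ± 2.22 and Ciart at 7.23 ± 3.84, which overlapped, and then Nfil3 at 1.91 ± 0.309 and Bhlhe41 at 0.830 ± 0.393 TPM (SD, n = 5). Ciart was thus below Nfil3 on CD and above it on TDD in every mouse of those groups.

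With ABX, the TPM means on CD were 32.9 ± 18.5 for Dbp, 33.8 ± 14.0 for Tef, 3.38 ± 1.79 for Hlf and 5.12 ± 4.44 for Nfil3 (SD, n = 5). On TDD with ABX they were 103 ± 20, 77.3 ± 16.2, 7.39 ± 1.33 and 2.05 ± 0.727 TPM. Ciart was at 1.89 ± 1.5 and 10.7 ± 1.70 TPM and Bhlhe41 at 0.321 ± 0.151 and 0.654 ± 0.273 TPM on these diets. Bhlhe40 was at 29.0 ± 3.12 TPM in CD+ABX mice, its lowest group, and at 46.2 ± 16.1 TPM in TDD+ABX mice.

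The table of transcripts lists 1 transcript for Nfil3 and 3 to 10 for the others. The longest Tef transcript (ENSMUST00000109553.9, 4403 bases) begins in GENCODE at position 81802421, ahead of the upstream RefSeq start, so that the upstream E-box printed above lies inside it and not before it. It had mean TPM of 2.98 on CD and 10.3 on TDD in SPF mice. The transcript that begins at 81811414, the downstream start (ENSMUST00000023024.7, 4079 bases), had mean TPM of 4.6 and 18.8. A Tef fragment of 248 bases took 6.06 of the 20.8 TPM on CD and 17.8 of the 73.8 TPM on TDD, which lifts the TPM of the gene against that of the others. For Dbp, the full-length transcript (ENSMUST00000080885.11) held a mean of 48.7% of the TPM on CD and 41.3% on TDD. For Hlf, ENSMUST00000004051.7 held 71.9% and 60.4%, and both this transcript (0.876 and 5.59 TPM) and the shorter ENSMUST00000107881.7 (0.337 and 2.51 TPM) were higher on TDD. Estimated counts are split between overlapping transcripts, so these shares are less certain than the gene totals.

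Around the members, the loop that drives them was read from fixed lists. Of 6 activators of the core loop, 1 was called on TDD in SPF mice, Arntl, which fell by 1.63 on the log2 scale (q = 0.000486, edgeR), while its partner Clock was at -0.25 (q = 0.0983) and Npas2, which can stand in for Clock, at -0.45 (q = 0.229). Of 7 repressors, 3 were called, all higher: Per3 (2.24, q = 0.000234), Per2 (1.76, q = 7.25e-05) and Per1 (1.01, q = 0.034, all edgeR). The call of Per1 was lost in 7 of the 20 fits with 1 mouse left out. The repressors Nr1d2 (0.93, q = 0.00431) and Cry2 (0.82, q = 0.00121) rose by less than 2-fold. Nr1d1 was at 0.59 (q = 0.0715) and Cry1 at 0.14 (q = 0.7, edgeR), neither past the q threshold. Of 5 kinases and ligases of the loop none was called in any comparison (edgeR). The median log2 fold changes of the lists were -0.08, 0.93 and 0.03, against 0.01 over all genes.

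Of the core loop genes, Per2 and Per3 alone were called with ABX on CD, both higher. The repressors Cry2 (0.53, q = 0.0248), Cry1 (0.25, q = 0.5), Nr1d2 (0.22, q = 0.542), Per1 (0.14, q = 0.841) and Nr1d1 (0.01, q = 0.982, all edgeR) were not. The fitted change of Arntl there was -0.33 on the log2 scale (q = 0.44, edgeR). Per2 was at 36.9, 40.3, 39.5, 15.9 and 52.6 CPM in CD+ABX mice and at 12.9, 16.1, 13.2, 18.1 and 13 CPM in CD mice. Mouse 4 was again inside the CD range, and the other CD+ABX mice were above it. The rise was 1.34 on the log2 scale for Per2 (q = 0.00108) and 1.04 for Per3 (q = 0.0393, both edgeR), and that of Per3 was lost in 7 of the 20 fits with 1 mouse left out. Arntl was at 69.6 CPM in CD+ABX mouse 4, higher than in every CD mouse (32.8 to 58.5 CPM), and at 26.5 to 34.8 CPM in the other CD+ABX mice. On TDD, ABX called 0 of the 6 activators and 0 of the 7 repressors (edgeR). In ABX-treated mice TDD changed Arntl by -1.10 (q = 0.0364) and Per3 by 1.42 (q = 0.0289, both edgeR), and each call was lost in 6 of the 20 fits.

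Of 15 genes known as outputs of the clock or of PAR factors, 13 were tested. On TDD in SPF mice 2 were called, both higher. Usp2, a ubiquitin protease with daily expression in many tissues, was at 14.6, 14.4, 12.3, 17.3 and 14.4 CPM in CD mice and at 48.8, 29.5, 35.1, 33.2 and 39.9 CPM in TDD mice (1.36, q = 0.000103, edgeR). Abcb1a, a drug efflux pump of the gut wall driven by PAR factors and repressed by NFIL3, was at 122, 108, 137, 153 and 115 CPM on CD and at 349, 282, 363, 396 and 430 CPM on TDD, without overlap (1.52, q = 0.000162, edgeR). It was also called on TDD with ABX (1.15, q = 0.00989) and with ABX on CD (1.22, q = 0.00136, both edgeR). With ABX on TDD none of the 13 was called, although Abcb1a rose there by 0.85 (q = 0.0124, edgeR), less than 2-fold. At q under 0.05 alone, 2 of the 13 were higher and 1 lower in that comparison (edgeR). The list median was 0.46 on TDD in SPF mice. At q under 0.05 without the 2-fold limit, 9 of the 13 were higher and 1 lower on TDD in SPF mice (edgeR). The share of all genes at q under 0.05 alone is not given here for either comparison, so these counts have no background beside them. An unadjusted p under 0.05, a looser limit, was found for 4624 of 16306 genes on TDD in SPF mice and for 30.5% with ABX on TDD (edgeR). The peptide transporter Slc15a1 and the other tested genes of the list were not called in any comparison between groups. Slc15a1 rose by less than 2-fold on TDD in SPF mice (0.65, q = 0.0383) and with ABX on CD (0.93, q = 0.00646, both edgeR).

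**Figure D5:**
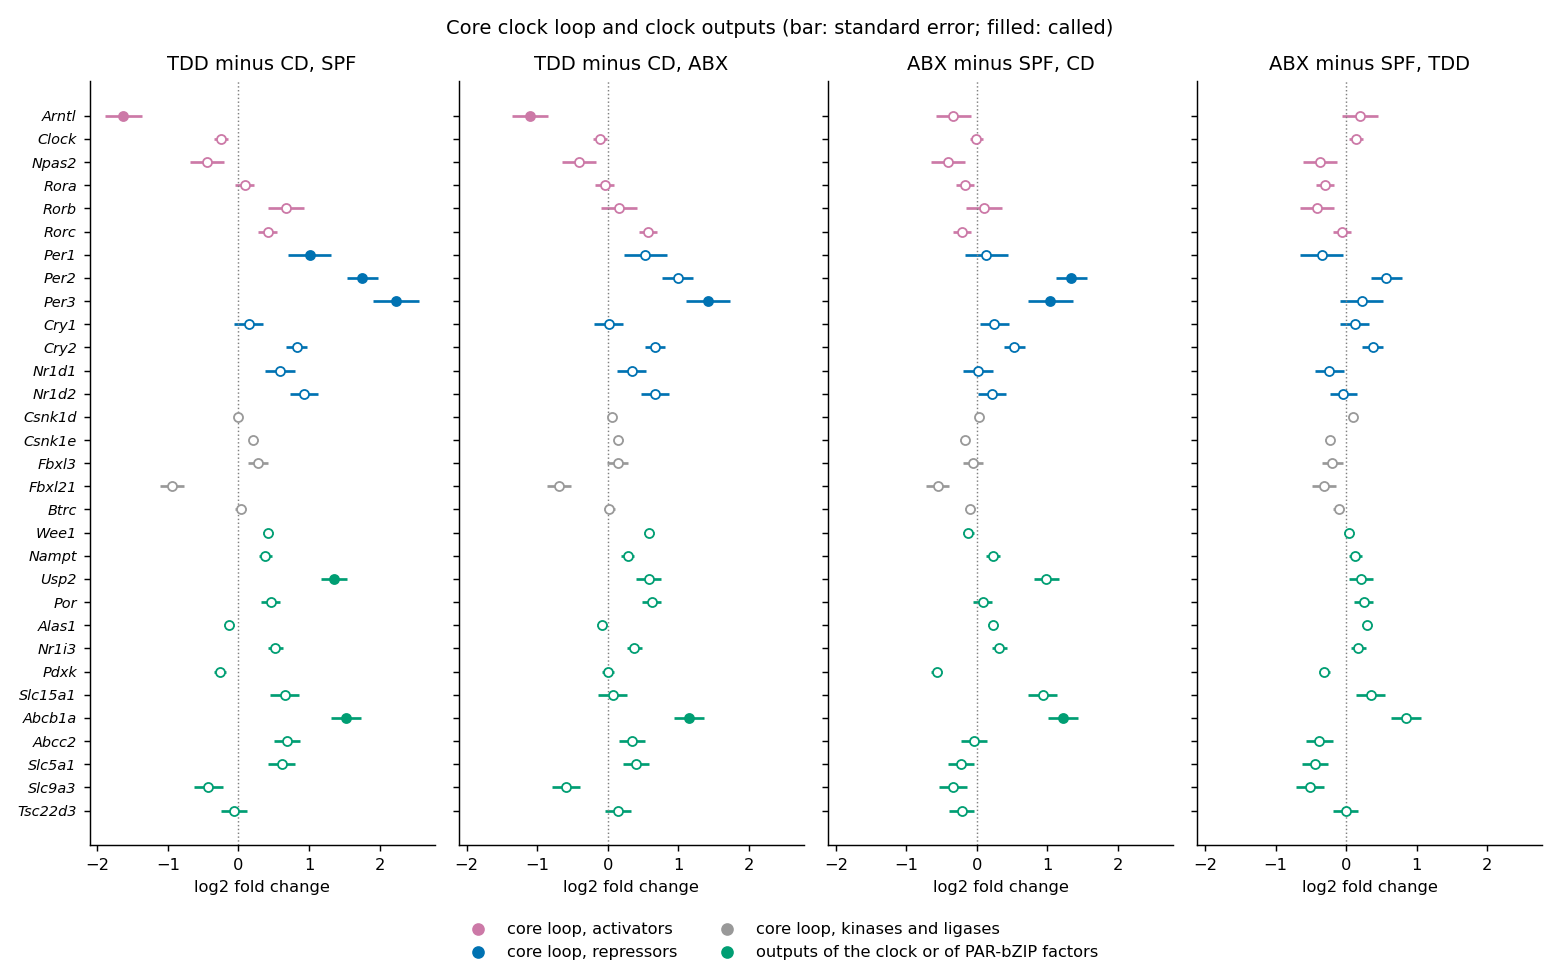
Log2 fold changes (x axis, bars are standard errors) of the core loop activators, repressors, kinases and ligases and of the clock outputs in the 4 comparisons. Filled points were called. Arntl lies to the left and Per1, Per2, Per3, Usp2 and Abcb1a to the right for diet in SPF mice, and no point is filled for ABX on TDD.

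The genes most like each member were sought among the 14048 with a mean of at least 1 CPM, by Pearson correlation of log2 levels over the 20 mice. As the 4 groups differ, such values mostly describe the group pattern. Dbp was closest to Tef (0.99), Hlf (0.99) and Per3 (0.98), and these 4 genes were also each other's nearest for Tef and Hlf. Ciart was closest to Per3 (0.97), Tef (0.95) and the activin receptor gene Acvr1b (0.94), and Nfil3 to Aagab (0.95), Dpf3 (0.93) and St5 (0.92). The nearest to Bhlhe40 were Rnh1 (0.88), Tmem219 (0.87) and Odf3b (0.86) and to Bhlhe41 Rapgef1 (0.89), Tspan4 (0.88) and Icosl (0.88), none of them a clock gene. After the group means were subtracted, Hlf (0.97), Tef (0.96) and Per3 (0.94) stayed the nearest to Dbp. Over the 15 mice outside the CD+ABX group these values were 0.96 for Hlf and 0.91 for Tef, and that of Dbp with Nfil3 was -0.71, against -0.91 over all 20.

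The cell makeup of the pieces was read from summed marker levels. B cell markers differed widely between mice, from 4.97 to 97.6 CPM on CD, 5.27 to 150 on TDD, 3.0 to 8.32 in CD+ABX and 4.14 to 105 in TDD+ABX mice. T cell markers were at 32.9 to 95.5 and 27.8 to 44.5 CPM on CD and TDD and at 18.3 to 23.7 and 16.8 to 30.6 CPM with ABX, and 4 of the 6 were called lower with ABX on CD and 1 of the 6 on TDD (edgeR). Of the 6 enterocyte markers, Fabp6 and Slc10a2, which mark the distal ileum, were called higher with ABX on both diets, and the other 4 were called in neither. Smooth muscle markers ranged from 471 to 2507 CPM over all mice and enteric neuron and glia markers from 14.3 to 41.8 CPM. Macrophage markers were at 156 to 196 CPM on CD and 88.6 to 139 CPM on TDD, without overlap. Markers of innate lymphoid and type 17 cells, the lineage in which Nfil3 has a known role, were at 5.62 to 8.79 CPM on CD and 6.15 to 13.2 CPM on TDD, where Nfil3 was lower. Most of this sum was Il7r, with means of 5.45 CPM on CD and 8.48 CPM on TDD. Il22, Il17a and Il17f had means of at most 0.055 CPM, and 4 of the 7 markers were tested. The sum is thus mainly a reading of Il7r. Enterocyte markers summed to 4352 to 7630 CPM on CD and 5808 to 6759 CPM on TDD. No marker of these lists was called for diet in SPF mice or in ABX-treated mice (edgeR). In CD+ABX mouse 4 the enterocyte sum was 6533 and the smooth muscle sum 1859 CPM, both inside the range of its group. The part of cell makeup in the results was not tested.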

How the data were processed

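RNA-seq of the terminal ileum of 20 mice in 4 groups of 5 was used. The authors used kallisto 0.44.0 with a GRCm38 transcriptome. They deposited unnormalized estimated counts for each gene, and for each transcript its estimated count and its TPM. Groups came from sample titles, which number mice by group. Whether litters or cages were shared is not given in the sources used here.

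Estimated counts were rounded, scaled by TMM and tested with edgeR 4.0.16 (R 4.3.3), by the quasi-likelihood test with robust estimation, with 4 groups in 1 fit and genes of at least 0.5 CPM in at least 1 mouse. The 0.5 CPM level and the calling rule (Benjamini-Hochberg q under 0.05, at least 2-fold) are those of the study, which used iDEP and names neither the test nor the number of mice that had to reach that level, set here at 1. TPM were summed over transcripts. Counts per gene matched the transcript sums for all members. Intervals are at 95%.

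The members and lists were chosen with earlier results of these data known. Members were named whatever their values. Of the core loop and output lists, called genes and any core activator or repressor could be named, and for likeness the 3 nearest genes. Markers of enterocytes, B, T and innate lymphoid cells, smooth muscle, neurons and glia, macrophages and skeletal muscle were read, and the result of a further list is not reported here. Alternatives were DESeq2 1.42.0, limma 3.58.1 (voom, and log2(TPM + 1)), RLE scaling, other filters, a replicate block, transcript sums, fits of the compared groups alone and each mouse left out. edgeR without robust estimation was added after seeing the data.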

Additional observations from a re-analysis of the deposited data

Results flagged for a closer look

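Of the 28 sets of 5 mice (7 members in 4 groups), 3 held a mouse whose gap to its nearest neighbour took over 0.71 of the range of the group (Dixon's 95% critical value for 5 samples), where chance gives about 1 set in 20. Nfil3 was at 19.1 CPM in CD+ABX mouse 4, against 3.39 to 5.68 CPM in the other mice of that group. Bhlhe40 was at 73.7 CPM in CD+ABX mouse 5 and at 137 CPM in TDD+ABX mouse 4. Without TDD+ABX mouse 4 the log2 diet effect on Bhlhe40 in ABX-treated mice was 0.37 in place of 0.59 (edgeR, q = 0.23 in place of 0.0993). No cause was tested.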

How the results depend on the processing

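The count of members called for diet in SPF mice was 5 or 6 in every setting run, and Bhlhe41 was the one lost, with the compared groups alone (q = 0.0563), with the replicate block (q = 0.0563) and on log2(TPM + 1) with limma (q = 0.0878). For diet in ABX-treated mice, where 1 was called, DESeq2 called 5, limma-voom 2, edgeR without robust estimation 2 and a fit of the compared groups alone 0, and leaving out 1 mouse gave 0 to 3. The share of all genes called moved as well, from 0.307% in the main fit to 0.601% with DESeq2. For ABX on CD, where 2 were called, limma-voom called 1 (Nfil3), no filter on low counts 1, the compared groups alone 0, the replicate block 1 and DESeq2 3, and leaving out 1 mouse gave 0 to 5. Apart from the shares printed in this report, those of all genes called in these other settings are not given here. The counts thus describe how the calls depend on the setting, not how the members stand against other genes. For ABX on TDD the count was 0 throughout, and for the interaction leaving out 1 mouse gave 0 to 2. The numbers of the mice were treated as names only. Same-numbered mice of compared groups had correlations of their deviations between -0.42 and 0.29. These values do not show whether such mice shared a cage or litter. The replicate block moved no count other than those given. The sign turned only for values near 0. Nfil3 with ABX on TDD was at 0.0077 with RLE scaling, 0.0081 with DESeq2, 0.0074 with the stricter filter and 0.0046 without a filter, and Bhlhe41 in the interaction was at -0.034 with limma-voom. With 1 mouse left out, the ABX effect on TDD ranged from -0.24 to 0.057 for Dbp, -0.11 to 0.072 for Tef, -0.18 to 0.12 for Nfil3 and -0.26 to 0.040 for Bhlhe40, and the interaction of Bhlhe41 from -0.11 to 0.25. Causes were not tested. With 5 mice per group, counts of 10 to 32 for Ciart on CD and of 19 to 62 for Bhlhe41 on CD limit the precision of their folds.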
